A study of Mus musculus with 6 samples.

Results

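The genes described here are the 5 enzymes of the urea cycle (Cps1, Otc, Ass1, Asl and Arg1), the enzyme that makes the activator of the cycle (Nags), 2 mitochondrial carriers that feed it (Slc25a13 and Slc25a15) and the liver glutaminase (Gls2). They were taken by symbol: all 9 were found among the 24421 genes of the count tables, and 8 of the 9 had enough reads to be among the 12622 genes tested. Liver RNA came from mice of the Townes model of sickle cell disease, in which human globin genes replace those of the mouse. Mice of both genotypes were 7 months old and carried the human alpha-globin allele Hbatm1(HBA)Tow. SS mice carried Hbbtm2(HBG1,HBB*)Tow, the human gamma-globin and sickle beta-globin allele, without a normal one. AS mice, the controls, carried that allele opposite Hbbtm3(HBG1,HBB)Tow, which holds the normal human beta-globin gene, so the sickle allele was shared by both groups. There were 3 libraries per genotype. The labels gave no sex, treatment or batch and did not say whether the libraries came from separate animals, and each p-value therefore reflects the spread among these samples alone, which could be technical.

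The urea cycle turns ammonia, which is toxic, into urea, which leaves through the kidney, and in mammals the complete cycle runs in hepatocytes. It begins in the mitochondrion, where carbamoyl phosphate is made and joined to ornithine, and ends in the cytosol, where arginine is split into urea and ornithine. Hepatocytes near the portal vein release ammonia from glutamine with Gls2 and make urea from it, while a rim of hepatocytes around the central vein captures the ammonia that is left over as glutamine with Glul, glutamine synthetase. Setting SS beside AS liver asks how the transcripts of this route differed in liver exposed to sickling.

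Gene reads ran from 6670011 to 13700194 per library, and the 9 genes together took 0.462% to 0.817% of them in AS and 0.441% to 0.953% in SS. Levels are given in CPM, gene reads scaled to a common library size with trimmed-mean factors. A pair of libraries stood apart from the others of their genotype. AS replicates 2 and 3 resembled each other far more than either resembled AS replicate 1 (a chi-square of 3.98 per gene between their counts, above sampling noise, against 49.1 and 70.9), and the same measure set SS replicate 3 apart from SS replicates 1 and 2 (83.1 and 131 against 32.8). In SS replicate 3, long transcripts were also high and short ones low against the other SS libraries. Its median log2 difference was -0.95 over the 312 tested genes with under 1000 exonic bases and 0.40 over the 3786 with 6000 or more (Spearman rho across genes 0.413, a description, since genes are not replicates). AS replicate 1 leaned the other way, more weakly (rho -0.211). Values are therefore also given without AS replicate 1 and SS replicate 3 and with the length trend removed, settings chosen after seeing the data.

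Transcripts for Otc, Gls2 and Asl were lower in all 3 SS libraries than in any AS library, by 1.90-fold, 1.82-fold and 1.54-fold in the fit, while Cps1, Arg1, Slc25a13 and Slc25a15 were much lower in SS replicates 1 and 2 than in SS replicate 3. Nags showed no separation, and Ass1 had almost no reads. None of the 8 tested genes was called by edgeR's quasi-likelihood test at an adjusted p under 0.05, where 0.967% of all tested genes were called (0.0555% lower), and 0.542% of those averaging 100 CPM or more. At an unadjusted p under 0.05, 3 of the 8 were lower, against 3.58% of all tested genes and 15.4% of the 1477 tested genes averaging 100 CPM or more, the class that 7 of the 8 belong to. DESeq2 called Otc alone, where it called 0.654% of genes lower and 4.13% of those averaging 100 CPM or more.

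**Figure D1:**
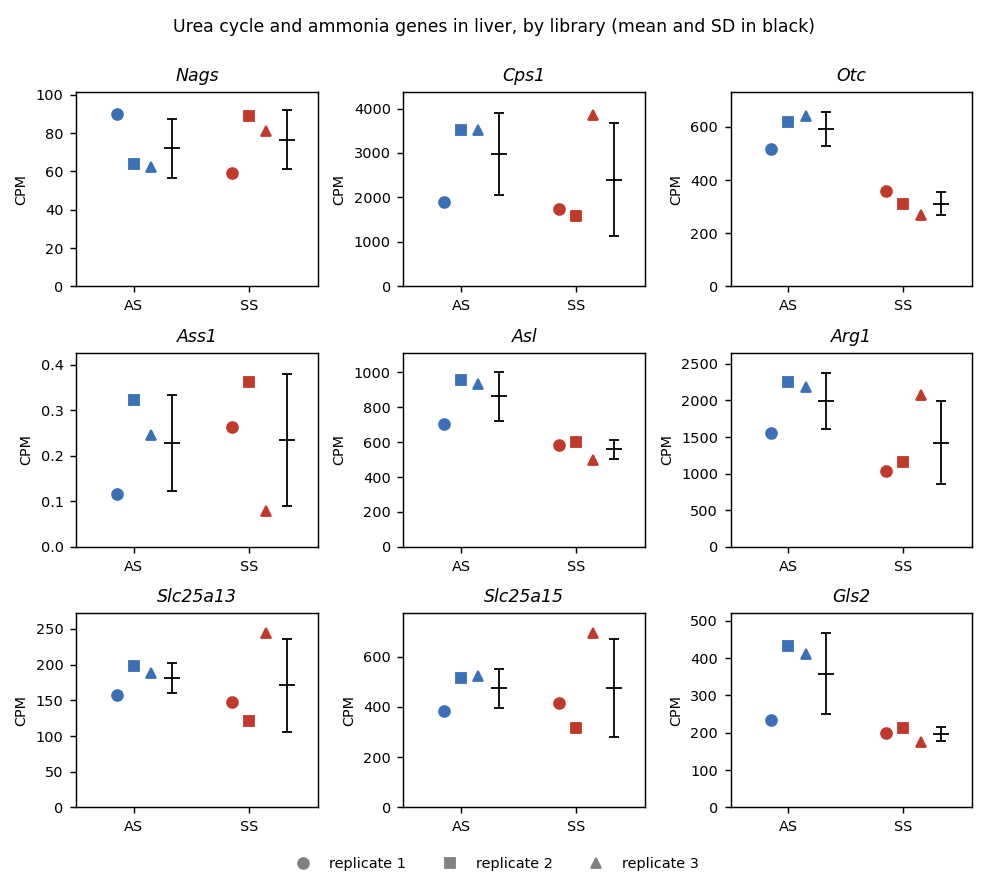
Level of each gene (CPM, linear axis from 0) in the 3 AS (blue) and 3 SS (red) libraries, with the replicate shown by the marker shape and the mean and SD in black. The SS values of Otc, Asl and Gls2 lie below all AS values, SS replicate 3 stands above the other SS libraries for Cps1, Arg1, Slc25a13 and Slc25a15, and Ass1 stays under 0.4 CPM.

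Levels of different genes can be set side by side per kilobase of merged exon, in CPM per kb. In AS liver, Arg1 was the most abundant, at 896 ± 172 CPM per kb (SD, n = 3), followed by Cps1 at 536 ± 167. Asl had 179 ± 29.1, Otc 140 ± 15.3, Gls2 103 ± 31.2 and Slc25a15 84.1 ± 14.0 CPM per kb. Slc25a13 had 47.6 ± 5.58 and Nags 25.4 ± 5.44 CPM per kb. Arg1 and Cps1 did not overlap in their AS libraries, and each stood above all genes after it, but Asl overlapped Otc, Otc overlapped Gls2 and Gls2 overlapped Slc25a15. Slc25a13 and Nags each stood below the gene before them in every AS library. In SS liver Arg1 (639 ± 256) and Cps1 (431 ± 229) did overlap, and Slc25a15, at 84.4 ± 34.8 CPM per kb, had a mean above that of Otc (73.5 ± 10.4) and overlapped Asl, Otc, Gls2 and Slc25a13.

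Ammonia enters the route in part from glutamine. Gls2, the glutaminase of periportal hepatocytes (chromosome 10, 128194457 to 128210004, mm10, plus strand), had 234, 432 and 410 CPM in AS replicates 1 to 3 and 200, 214 and 177 CPM in SS replicates 1 to 3. The groups did not overlap, although AS replicate 1 lay only a little above the highest SS library. In the fit the log2 change was -0.87 (SE 0.292, 95% interval -1.51 to -0.22, adjusted p = 0.254 in edgeR), and it lay between -1.11 and -0.73 when each library was left out in turn. DESeq2 gave an adjusted p of 0.0560. In GENCODE, 97 exonic bases of Gls2 overlap Spryd4 on the opposite strand, and whether the counting used strand was not given in the sources used here.

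Nags makes N-acetylglutamate, without which the first enzyme of the cycle is inactive (chromosome 11, 102145513 to 102149477, plus strand). It had 89.8, 64.0 and 62.3 CPM in AS and 59.4, 89.2 and 81.3 CPM in SS. The high library in AS was replicate 1 and the low one in SS was replicate 1, so the groups overlapped fully. The log2 change was 0.09 (SE 0.260, 95% interval -0.49 to 0.67, adjusted p = 0.904 in edgeR), an interval that leaves room for a change of either sign. The antisense gene Gm11586 covers 443 exonic bases, 15.6%, of Nags, so its reads are uncertain if strand was not used.

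Cps1, which encodes carbamoyl phosphate synthetase of the mitochondrial matrix and commits ammonia to the cycle (chromosome 1, 67123026 to 67231259, plus strand), had 1909, 3506 and 3519 CPM in AS and 1745, 1579 and 3858 CPM in SS. SS replicate 3 was the highest of all 6 libraries, and AS replicate 1 lay close to SS replicates 1 and 2. Its fitted log2 change was -0.31 (SE 0.397, 95% interval -1.19 to 0.56, adjusted p = 0.761 in edgeR). With each library left out it ran from -0.85 (SS replicate 3, adjusted p = 0.213) to -0.10 (SS replicate 2), with -0.56 without AS replicate 1.

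Otc, ornithine transcarbamylase, joins carbamoyl phosphate to ornithine and is encoded on the X chromosome (10252305 to 10321024, plus strand). It had 519, 618 and 641 CPM in AS and 357, 309 and 269 CPM in SS. The lowest AS library was above the highest SS library by a wide margin, and SS replicate 3 was the lowest of all. The log2 change of -0.93 (SE 0.254, 95% interval -1.49 to -0.36) had the lowest p of the 8 genes (adjusted p = 0.147 in edgeR, unadjusted p = 0.00414), and DESeq2 called it (log2 change -0.97, adjusted p = 0.00362). Leaving out each library in turn gave -1.04 to -0.84, with edgeR adjusted p from 0.105 to 0.492.

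Slc25a15 carries ornithine into the mitochondrion and citrulline out (chromosome 8, 22375551 to 22398597, minus strand). It had 383, 517 and 522 CPM in AS and 415, 316 and 694 CPM in SS. Its means were nearly equal, 474 ± 78.8 and 475 ± 196 CPM (SD, n = 3), because the highest and the lowest library were both SS. The log2 change was 0.0045 (SE 0.326, 95% interval -0.72 to 0.73, adjusted p = 0.997 in edgeR), and -0.38 without SS replicate 3. Slc25a13, citrin, exports the aspartate that brings the second nitrogen (chromosome 6, 6041218 to 6217173, minus strand). It had 157, 197 and 188 CPM in AS and 148, 121 and 245 CPM in SS, and again the AS values lay inside the SS range. Its log2 change was -0.08 (SE 0.301, 95% interval -0.75 to 0.59, adjusted p = 0.929 in edgeR), and 0.11 without SS replicate 2.

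Ass1, which joins citrulline to aspartate and is an abundant transcript of liver as a rule (chromosome 2, 31470207 to 31520672, plus strand), had 1, 2 and 3 reads in the AS libraries and 2, 5 and 1 in the SS libraries. All but SS replicate 2 were at or under 3 reads, a floor of 0.217 to 0.483 CPM here, so no fold is given. The next enzyme of the cycle, Asl, had at least 4405 reads in every library. GENCODE annotates a processed pseudogene of Ass1, Gm5424, on chromosome 10 (62071123 to 62072362, plus strand), and the pseudogene had 0 reads in all libraries. Aligned to an Ass1 transcript of 1696 bases, its 1240 bases matched at 1234 positions (99.5%) with 0 gaps. The longest coding exon of that transcript, exon 5, is shown because its 189 bases are the same at both loci, chr2:31480975-31481163 and chr10:62071297-62071485 (mm10, both on the plus strand, from GENCODE M21 transcripts), so a read from within it fits either place.
Ass1 exon 5 and Gm5424: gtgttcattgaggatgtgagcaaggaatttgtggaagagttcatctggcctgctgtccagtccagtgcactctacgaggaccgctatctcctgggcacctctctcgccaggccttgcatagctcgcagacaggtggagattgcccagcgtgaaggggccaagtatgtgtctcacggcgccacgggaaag

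The sharing is partial when counted over whole transcripts. Of 2359 distinct 50-base words in Ass1 transcripts, 911 (38.6%) also stood in the pseudogene, and no other annotated gene held more. Of 100-base words, 622 of 2309 (26.9%) did. For Cps1, Otc, Asl, Arg1 and Slc25a15 the shared words were 0 at both lengths. Alignments to several places made up 14.7% to 22.8% of the records in these libraries and were left out of gene counts. Whether the Ass1 reads went there was not tested, and the near-zero counts cannot be read as the level of the transcript.

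Asl, argininosuccinate lyase, releases arginine and fumarate (chromosome 5, 130011258 to 130029247, minus strand). It had 701, 958 and 930 CPM in AS and 581, 600 and 497 CPM in SS. All 3 SS libraries were below the lowest AS library, and SS replicate 3 was lowest. The fit put the log2 change at -0.63 (SE 0.259, 95% interval -1.20 to -0.05, adjusted p = 0.358 in edgeR), between -0.77 and -0.56 with each library left out. Arg1, the arginase of the hepatocyte cytosol, which some macrophages also express, completes the cycle (chromosome 10, 24915221 to 24927484, minus strand). It had 1556, 2251 and 2181 CPM in AS and 1039, 1154 and 2079 CPM in SS. SS replicates 1 and 2 were below every AS library, and SS replicate 3 was above AS replicate 1. The log2 change was -0.49 (SE 0.330, 95% interval -1.22 to 0.24, adjusted p = 0.556 in edgeR), and with each library left out it ran from -0.87 (SS replicate 3, adjusted p = 0.126) to -0.31 (SS replicate 1).

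As a set, 6 of the 8 tested genes had lower fitted values in SS, and their median log2 change was -0.40. Over all 12622 tested genes 43.7% were lower, with a median of 0.08, but over the 1477 genes of at least 100 CPM 81.5% were lower, with a median of -0.35. Groups did not overlap, with SS below AS, for 3 of the 8 genes, for 9.04% of all tested genes and for 31.3% of the genes of at least 100 CPM. With 6 libraries the medians of the 8 and of the abundant genes were thus close, but single libraries moved them apart. They were -0.68 and -0.28 without SS replicate 3, -0.60 and -0.28 without AS replicate 1, -0.22 and -0.37 without SS replicate 1, and -0.23 and -0.45 without SS replicate 2. All these values move with the scaling: with factors from 15 secreted hepatocyte proteins the median of the 8 was 0.13, that of the abundant genes 0.11 and that of all genes 0.57, while Otc, Gls2 and Asl stayed negative at -0.49, -0.47 and -0.20.

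Leaving out AS replicate 1 and SS replicate 3 together changed the picture. In that fit, 5 of the 8 genes were called lower, where 2.49% of all tested genes and 12.4% of those of at least 100 CPM were. Cps1 had a fitted log2 change of -1.08 (SE 0.126, adjusted p = 0.00338 in edgeR), Gls2 -1.03 (adjusted p = 0.00806) and Arg1 -1.02 (adjusted p = 0.00513). Otc had -0.92 (adjusted p = 0.0108) and Asl -0.68 (adjusted p = 0.0236), while Slc25a13 (-0.52), Slc25a15 (-0.51) and Nags (0.24) were not called. The median of the 8 was -0.80, and that of the genes of at least 100 CPM -0.22. AS replicate 1 was the lowest AS library for all of the 8 genes but Nags. SS replicate 3 was the highest SS library for Cps1, Arg1, Slc25a13 and Slc25a15, and the lowest for Otc, Asl and Gls2. Removing these 2 libraries by itself widens the difference for Cps1, Arg1, Slc25a13 and Slc25a15. For Otc, Asl and Gls2, removing AS replicate 1 widens it and removing SS replicate 3 narrows it. Gls2 was at -1.11 without AS replicate 1 alone and at -0.80 without SS replicate 3 alone. Calls from this fit, here and below, are therefore a description. This fit rests on 2 libraries per genotype, and its AS pair is the close pair, whose values for Cps1 were 3506 and 3519 CPM. With that pair summed instead, and the other libraries kept, 0 of the 8 were called by edgeR, with 1 at an unadjusted p under 0.05.

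**Figure D2:**
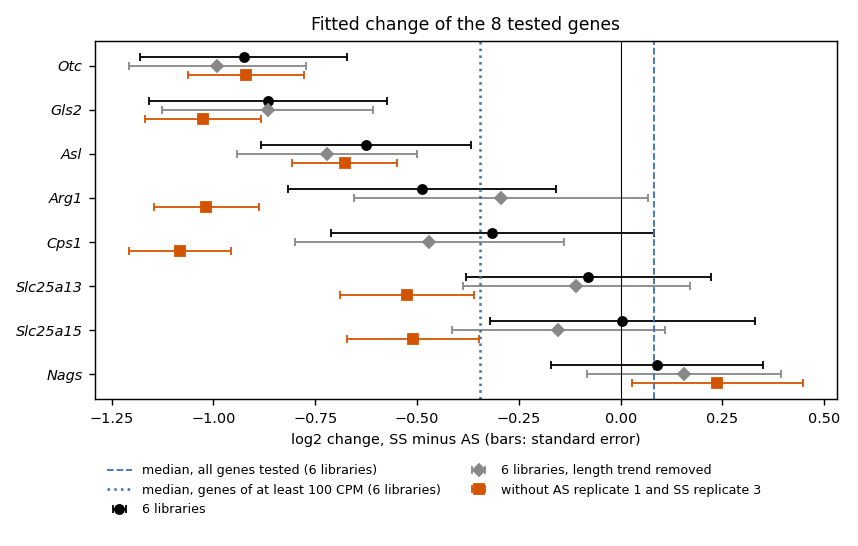
Fitted log2 change, SS minus AS, of the 8 tested genes with standard errors as bars, for 6 libraries (black), 6 libraries with the length trend removed (grey) and without AS replicate 1 and SS replicate 3 (orange), with the medians of all tested genes (dashed, 0.08) and of abundant genes (dotted, -0.35). Otc, Gls2 and Asl keep similar values in all 3 fits, whereas Cps1 moves from -0.31 to -1.08 and Arg1 from -0.49 to -1.02.

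Across the 6 libraries the genes split into sets that moved together, given here as a description over libraries that share their scaling and their 2 genotypes. Otc, Asl and Gls2 correlated at Pearson's r of 0.90 to 0.98 with each other in log2 CPM. Cps1, Slc25a13 and Slc25a15 did so at 0.92 to 0.98, with Arg1 at 0.77 to 0.94 to these. Otc and Slc25a15, consecutive steps of ornithine use, had an r of 0.016. Nags had negative values with all 7 other genes, from -0.52 to -0.15. The difference lies in SS replicate 3, where Cps1 was 1.22 above the mean of the other SS libraries in log2 CPM, Slc25a15 0.94, Arg1 0.93 and Slc25a13 0.87, while Otc was -0.30, Asl -0.25 and Gls2 -0.23.

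The exonic length of the genes is set beside these values here, and its part in them was not tested. Arg1, with 2228 exonic bases, is in a length class whose median in SS replicate 3 was -0.30, and Cps1, with 5555 bases, in one whose median was 0.10, the same class as Otc (4241 bases) and Asl (4831 bases). With the length trend removed per library, 0 of the 8 genes were called by edgeR, with 3 at an unadjusted p under 0.05. That fit called 0.119% of all tested genes lower, and 0.542% of those averaging 100 CPM or more. Otc then stood at a log2 change of -0.99 (SE 0.218, adjusted p = 0.0670 in edgeR), Gls2 at -0.87, Asl at -0.72 and Slc25a15 at -0.15. Cps1 went from -0.31 to -0.47 and Arg1 from -0.49 to -0.29.

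**Figure D3:**
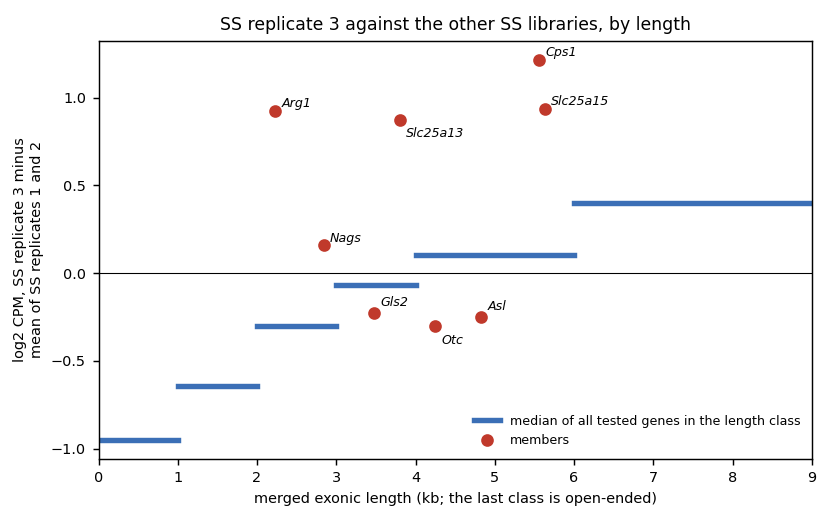
Log2 CPM of SS replicate 3 minus the mean of SS replicates 1 and 2 (vertical axis) against merged exonic length in kb, with the median of all tested genes per length class (blue lines) and the 8 tested genes (red points). Class medians climb from -0.95 to 0.40 with length, and Cps1, Arg1, Slc25a13 and Slc25a15 lie well above their class with Nags above it too, while Otc, Asl and Gls2 lie below. Among genes of that length averaging 100 CPM or more, not drawn, the median was -0.23, level with Gls2 at -0.23.

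Ratios between steps within a library do not depend on scaling. Of 4 ratios computed, chosen after the values were seen, Gls2 to Glul set periportal glutamine breakdown against pericentral glutamine synthesis. Per kb of exon it was 0.131, 0.305 and 0.291 in AS and 0.105, 0.127 and 0.0757 in SS. It was lower in every SS library, although AS replicate 1 was near SS replicate 2, with a mean log2 difference of -1.17 (2.26-fold lower). The ratio of Otc to Slc25a15 was 1.80, 1.59 and 1.63 in AS and 1.14, 1.30 and 0.515 in SS, a log2 difference of -0.87 with no overlap. Both had an exact two-sided permutation p of 0.1, the smallest that 3 against 3 libraries allow, or 0.2 after Benjamini-Hochberg adjustment over the 4. Otc to Cps1 (log2 difference -0.55, exact p = 0.6, adjusted 0.8) and Asl to Arg1 (-0.08, exact p = 1, adjusted 1) overlapped between the groups.

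Enzymes of amino acid breakdown that can supply nitrogen to the cycle, through ammonia, aspartate or glutamate, gave 0 calls of 13 by edgeR with 6 libraries. Fitted values were lower for 11 of 13, 4 were lower at an unadjusted p under 0.05 and the median log2 change was -0.50. Lower fitted values were found for 43.7% of all tested genes and 81.5% of those averaging 100 CPM or more. At that p, 3.58% and 15.4% of these were lower. Gldc, the decarboxylase of the glycine cleavage system, had 152, 155 and 174 CPM in AS and 77.5, 58.7 and 88.3 CPM in SS, with no overlap. The log2 difference in the fit was -1.10 (SE 0.247, adjusted p = 0.0768 in edgeR, and 0.000784 in DESeq2), and edgeR called it without SS replicate 3 (adjusted p = 0.0319) and with the length trend removed (adjusted p = 0.0182). Its partner Amt, the aminomethyltransferase, had 29.3, 57.5 and 45.1 CPM in AS and 12.9, 21.5 and 24.5 CPM in SS (log2 change -1.16, SE 0.334, adjusted p = 0.172 in edgeR). Got1 and Sds, a transaminase that makes aspartate and the serine dehydratase, followed Cps1 in AS replicate 1, with 312 against 865 and 837 CPM, and 154 against 536 and 527 CPM. DESeq2 called 3 of the 13 lower, against 0.654% of genes and 4.13% of those averaging 100 CPM or more. Leaving out AS replicate 1 and SS replicate 3, edgeR called 10 of the 13 lower, against 2.49% of all tested genes and 12.4% of those averaging 100 CPM or more.

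Glutamine synthesis and perivenous ammonia capture had 0 calls of 4 by edgeR, with 1 higher at an unadjusted p under 0.05, Slc1a2. Of all tested genes, 12.7% had such a p in either direction, and 3.58% were lower. The median of the 4 was 0.25, which ran from 0.09 (SS replicate 1) to 0.49 (AS replicate 1) with each library left out. Glul had 1702, 1354 and 1346 CPM in AS and 1817, 1604 and 2230 CPM in SS, where SS replicate 2 lay below AS replicate 1 (log2 change 0.36, SE 0.267, adjusted p = 0.590 in edgeR). Slc1a2, a glutamate transporter of the same rim of cells, had 237, 174 and 184 CPM in AS and 293, 235 and 591 CPM in SS. Its log2 change of 0.91 (SE 0.357, adjusted p = 0.329 in edgeR) was 0.40 without SS replicate 3. Oat, ornithine aminotransferase, had -0.45 (SE 0.275), and Rhbg, an ammonia channel of the Rhesus family, 0.13 (SE 0.390), which ran from -0.19 to 0.51 with each library left out in turn.

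**Figure D4:**
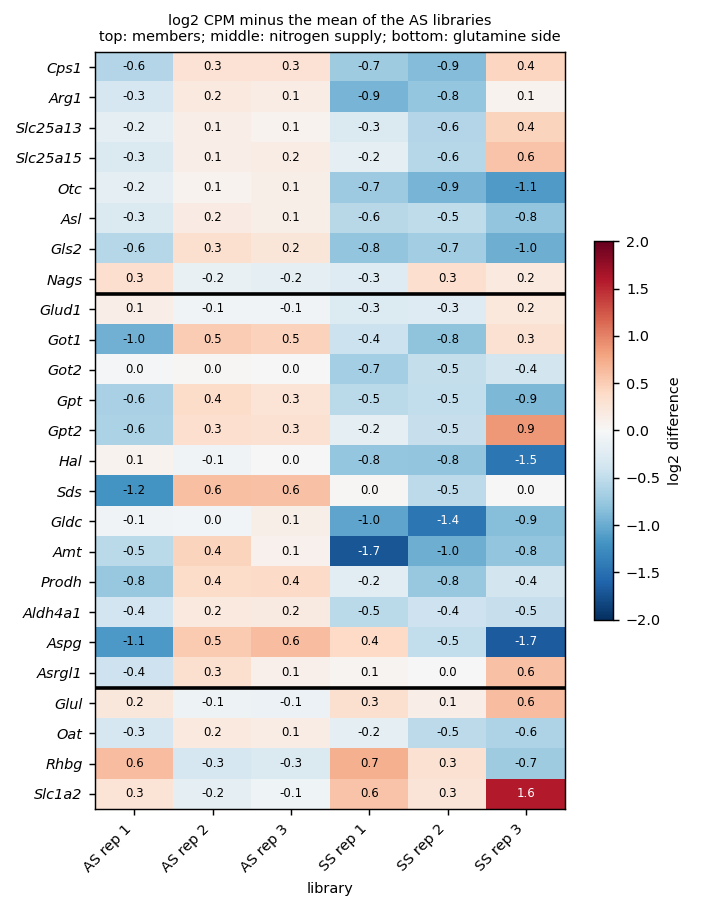
Log2 CPM of each library minus the mean log2 CPM of the 3 AS libraries for the 8 tested genes (top), 13 enzymes that supply nitrogen (middle) and 4 genes of the glutamine side (bottom), blue for lower and red for higher. Otc, Asl and Gls2 are blue in all 3 SS libraries, whereas Cps1 and Slc25a15 are blue in SS replicates 1 and 2 and red in SS replicate 3, with Cps1 at 0.43 there.

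Some relatives of these genes with wider expression were scarce, and none of those described here was called by edgeR. Slc25a29, a mitochondrial carrier of basic amino acids, had 1.96, 0.644 and 1.06 CPM in AS and 3.69, 2.25 and 3.44 CPM in SS. Every SS library was above every AS library, as for 12.1% of all tested genes, and the fit gave a log2 change of 1.33 (SE 0.610, adjusted p = 0.405 in edgeR). Arg2, the mitochondrial arginase, had 0.58 (SE 0.641, and 0.18 without SS replicate 2), Cad, the carbamoyl phosphate synthetase of pyrimidine synthesis, 0.10 (SE 0.384), and Slc25a12, the citrin relative of other tissues, 0.01 (SE 0.284). Fitted values of Cad and Slc25a12 changed sign with the setting. Slc25a2 had 2 reads in AS and 0 in SS.

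Among 9 tested genes for transport of glutamine, arginine, glutamate, ammonia and urea, 0 were called by edgeR with 6 libraries. At an unadjusted p under 0.05, 3 were higher. Of all tested genes, 12.7% had such a p in either direction, and 3.58% were lower. The median of the 9 was -0.28, between -0.41 (AS replicate 1) and -0.10 (SS replicate 2) with each library left out. Slc1a5, a glutamine transporter of growing cells, had 2.76, 8.86 and 6.05 CPM in AS and 27.6, 22.0 and 19.8 CPM in SS, well apart. The fitted log2 change was 1.98 (SE 0.406, adjusted p = 0.0539 in edgeR), and DESeq2 (adjusted p = 0.00166), where 1.92% of genes were called higher, and edgeR with the length trend removed (adjusted p = 0.0459), where 1.05% were called higher, both called it. Genes around arginine metabolism outside the cycle, most of which do not act on arginine itself, had 0 calls of 8 by edgeR. Of these, 2 were lower at an unadjusted p under 0.05, as were 3.58% of all tested genes. Both averaged 100 CPM or more, and 15.4% of the tested genes in that class were lower at that p. Their median was -0.25, between -0.46 (AS replicate 1) and -0.10 (AS replicate 2) in the same way. Agmat, which is related to arginases in sequence, had the lowest p, with 271, 276 and 287 CPM in AS and 153, 186 and 99.8 CPM in SS (log2 change -0.93, SE 0.281, adjusted p = 0.195 in edgeR). Receptors, transcription factors and sirtuins known to act on the cycle had 0 calls of 12 by edgeR, 0 at an unadjusted p under 0.05 and a median of -0.11 (-0.06 without SS replicate 3). There the lowest p was that of Ppargc1a, a coactivator of the fasting response (log2 change 0.89, SE 0.409, adjusted p = 0.405 in edgeR, and 0.41 without SS replicate 3).

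Markers of the position of hepatocytes in the lobule stood as follows. Of 10 periportal genes, Gls2 is also a member, and Hal and Sds are also in the list of nitrogen supply above. EdgeR called 0 of the 10, and the median log2 change was -0.53. At an unadjusted p under 0.05, 4 were lower, with Gls2 and Hal, both already counted above, among them. At that p, 3.58% of all tested genes and 15.4% of those averaging 100 CPM or more were lower. The periportal median was -0.80 without AS replicate 1. DESeq2 called 2 of the 10 lower, where it called 0.654% of genes and 4.13% of those averaging 100 CPM or more. Without AS replicate 1 and SS replicate 3, edgeR called 6 of these 10 and 3 of the 11 pericentral genes lower, where it called 2.49% of all tested genes and 12.4% of those averaging 100 CPM or more. Cyp2f2, a periportal cytochrome P450, had 672, 561 and 551 CPM in AS and 330, 214 and 213 CPM in SS (log2 change -1.24, SE 0.279, adjusted p = 0.0768 in edgeR, and 0.000379 in DESeq2). The 11 pericentral genes include the whole glutamine list above, Glul, Oat, Rhbg and Slc1a2. EdgeR called 0 of the 11, and DESeq2 called 2 lower. At an unadjusted p under 0.05 in edgeR, 3 were lower and 1 was higher, Slc1a2, already counted above. Among all tested genes, 12.7% had such a p in either direction. The pericentral median was 0.24, which ran from -0.04 (SS replicate 3 left out) to 0.47 (AS replicate 1 left out) with 1 library fewer. Cyp2e1, a pericentral cytochrome P450, had 9582, 9109 and 8838 CPM in AS and 5988, 4097 and 5562 CPM in SS (log2 change -0.82, SE 0.269, adjusted p = 0.245 in edgeR). Fitted values were lower for 8 of the 10 periportal genes, and for 4 of the 11 pericentral genes, with 7 higher. Lower fitted values were found for 43.7% of all tested genes and 81.5% of those averaging 100 CPM or more. Several of the 7 higher pericentral genes averaged under 100 CPM, so the 81.5% is no background for them. Genes of both zones were thus among the lower ones. Most of the pericentral list was not with 6 libraries, but 6 of its 11 genes were lower without AS replicate 3, and also without SS replicate 3. The difference between the zones was not tested.

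RNA of other cell types moved with genotype, and its part in the values above was not tested. In bulk liver, fewer hepatocytes and less RNA per hepatocyte cannot be told apart. The summed level of the 15 secreted hepatocyte proteins was 140389 to 215261 CPM in AS and 107809 to 168120 CPM in SS. Of the 15, 14 had lower fitted values, as had 81.5% of genes averaging 100 CPM or more. EdgeR called 0, 1 was lower at an unadjusted p under 0.05 and the median log2 change was -0.46. Alb, albumin, was highest in AS replicate 1 (85540 CPM), where Cps1 was lowest of the AS libraries. Of 11 tested erythroid markers, 4 were called higher (0.911% of all tested genes were), and their sum was 57.5 to 68.4 CPM in AS and 261 to 519 CPM in SS, with Gata1 at 0 reads in AS. Dividing cell markers had 6 of 10 called higher and sums of 23.2 to 30.9 and 105 to 191 CPM. Macrophage markers had 5 of 12 called higher and sums of 514 to 656 and 629 to 1655 CPM.

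Neutrophil markers had 2 of 6 called higher and sums of 3.84 to 6.56 and 23.8 to 87.6 CPM, with Elane and Ltf at 0 reads in AS and Cxcr2 at 0 in SS. Stellate cell and fibroblast markers had 2 of 9 called higher and sums of 369 to 429 and 485 to 746 CPM. For lymphocytes edgeR called 0 of 5 (2 higher at an unadjusted p under 0.05, sums of 3.57 to 5.64 and 7.79 to 18.9 CPM). For endothelium it called 0 of 6 (2 higher at that p, sums of 177 to 254 and 188 to 349 CPM). For bile duct it called 0 of 4 (1 higher at that p, sums of 86.4 to 105 and 117 to 249 CPM). Of all tested genes, 12.7% had such a p in either direction, and 3.58% were lower. Without AS replicate 1 and SS replicate 3, where 2.72% of tested genes were called higher, the higher calls were 5 of 10 erythroid, 8 of 10 dividing, 5 of 12 macrophage, 6 of 6 neutrophil and 3 of 9 stellate markers, and the median log2 change of the 15 hepatocyte proteins was -0.13.

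The genes whose log2 CPM followed the mean standardised profile of the 8 tested genes most closely, among 7987 genes of at least 10 CPM, were 2310061I04Rik, Gfm1, Ei24, Mtap and Oit3, with Pearson's r of 0.99 over 6 libraries, as a description. The profile itself was highest in AS replicates 2 and 3 (mean standardised values of 0.70 and 0.63) and lowest in SS replicates 1 and 2 (-0.76 and -0.73), with AS replicate 1 at -0.06 and SS replicate 3 at 0.22 between them. Gfm1, a translation factor of mitochondria, had 53.2, 64.6 and 64.8 CPM in AS and 43.0, 40.4 and 56.3 CPM in SS, and Mtap, a phosphorylase of methylthioadenosine, 24.2, 30.6 and 31.3 CPM and 18.7, 18.3 and 24.6 CPM. None of these 5 was called by edgeR, and 0 had an unadjusted p under 0.05.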

How the data were processed

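The authors deposited raw read counts per gene symbol for 3 AS and 3 SS liver samples. The submitters' processing notes name HISAT2, HTSeq and the mm10 build. Their versions, the annotation and the strand setting are not given in the sources used here. The 5 counter lines outside genes, 40.7% to 53.9% (no annotated gene) and 14.7% to 22.8% (several alignments) of records for the largest, stayed out of library sizes. The 53.9% was SS replicate 1 alone, and the next highest was 43.8% in SS replicate 3. SS replicate 1 also had the largest shares of unaligned (5.60%) and low-quality (3.93%) records. It stayed in the fit without AS replicate 1 and SS replicate 3, and its part there was not tested. Genes passing filterByExpr (minimum count 10, minimum total 15) were fitted with edgeR 4.0.16 in R 4.3.3 (trimmed-mean factors, robust quasi-likelihood F-test, two-sided, Benjamini-Hochberg over all tested genes, threshold 0.05). Standard errors came from the F statistic. DESeq2 1.42.0 and limma-voom (limma 3.58.1) were alternatives, with other scalings, filters, a replicate block and each library left out. The fits were tested on simulated data. Merged exon lengths, found for 96.4% of tested genes, and loci came from GENCODE M21 (mm10). Log2 CPM used a pseudocount of 0.25. The length trend was removed with per-library lowess offsets. Named genes were the members, all tested genes of the relatives and glutamine lists (1 of the relatives is not reported here), the called or otherwise lowest-p gene of each other pathway list, the 2 most abundant markers at most and the 5 genes closest to the members' profile. Amt, Got1, Sds, Hal, Gata1, Elane, Ltf, Cxcr2 and Slc25a2 were added after their values were seen. The members and lists were chosen with earlier results of these data known. Reads are not unique molecules, so the 3-count floors cover counting error only.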

Additional observations from a re-analysis of the deposited data

How the results depend on the processing

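Of 19 alternatives, 17 left the number of genes called among the 8 at 0. DESeq2 gave 1, and leaving out AS replicate 1 and SS replicate 3 together gave 5. The median log2 change of the 8 was -0.11 with library totals alone, 0.13 with hepatocyte factors and -0.80 with those libraries left out. Without 1 library at a time it ran from -0.68 (SS replicate 3) to -0.22 (SS replicate 1), with -0.60 without AS replicate 1. Otc, Asl and Gls2 kept their negative sign in all 19. With hepatocyte factors, Arg1 was at 0.041, Cps1 at 0.22 and Slc25a13 at 0.47, and with library totals alone Slc25a13 was at 0.22, Cps1 at -0.017 and Arg1 at -0.19. These factors moved the median of all genes by 0.49 and 0.28. Near-zero values changed sign. Slc25a15 was at -0.042 with median-ratio factors, -0.00018 with upper-quartile factors, -0.014 with no filter, -0.057 with the replicate block, -0.050 with DESeq2, -0.060 with limma-voom, -0.51 with both libraries out and -0.15 with the length trend removed. Nags was at -0.0030 with AS replicates 2 and 3 summed. Without 1 library at a time, Slc25a15 ran from -0.38 to 0.22, Slc25a13 from -0.44 to 0.11 and Nags from -0.046 to 0.27. The causes were not tested.

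Over all genes, 122 were called, and 217 with no filter, 460 with the replicate block, 370 with DESeq2, 31 with limma-voom, 662 with both libraries out, 31 with AS replicates 2 and 3 summed and 22 to 99 without 1 library at a time. Whether the replicate numbers pair the samples could not be settled from 3 libraries per group. Same-numbered libraries correlated at 0.05, -0.12 and 0.20 in their deviations from the group means. AS replicate 1 was closest to SS replicate 2, and AS replicate 3 to SS replicate 3. The replicate block called 0 of the 8 genes and gave Otc an adjusted p of 0.0950. Higher calls made up 115 of 122 with trimmed-mean factors, 167 of 168 with library totals alone and 98 of 98 with hepatocyte factors. Of the 9 genes, Ass1 alone was near the counting floor.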
